A study of Mus musculus with 15 samples.

Results

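The genes described here are 38 genes of glucose uptake, glycolysis, lactate formation and export, and the entry of pyruvate into the mitochondrion. They were taken by symbol from the RNA-seq table of fetal preSertoli cells, where all 38 had a row among 27697 symbols. The series holds 15 mouse samples. Beside the 3 RNA-seq libraries used here they are 8 DNase-seq libraries and H3K27ac ChIP-seq with its inputs, which were not used here. PreSertoli cells, the fetal supporting cells that enclose the germ cells in the testis cords, were purified by flow cytometry at E15.5 from fetal testes of F1 embryos of C57BL/6J x CD-1 parents. The cells came from about 165 embryos in all and formed 3 pools of about 1000000 cells each. The RNA-seq labels name no reporter behind this sort. All 3 libraries belong to 1 group, so there is no contrast between conditions and no differential test.

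Glycolysis splits glucose into pyruvate in the cytosol. Pyruvate is then either reduced to lactate, which leaves the cell through monocarboxylate carriers, or oxidised in mitochondria by the pyruvate dehydrogenase complex. Sertoli cells of the adult testis are known for taking up glucose and passing lactate to germ cells as fuel. Most steps can be run by several isoforms with different tissue distributions.

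Levels are in CPM (counts-per-million), the expected count of a gene divided by the total of its library and multiplied by 1000000. Libraries 1, 2 and 3 held 47766422, 56007688 and 51725096 counts. CPM is not divided by transcript length, and no transcript lengths were used here. A ratio of CPM between genes is therefore a ratio of reads, and it equals a ratio of transcripts only where both are equally long. Comparisons of the same gene between libraries do not depend on length. Expressed here means that none of the 3 libraries fell under 1 CPM. Of all symbols, 47.1% were expressed by this rule, the share to set beside each count of expressed genes or markers. The libraries do not mark strand, so reads of a gene and of an antisense partner cannot be told apart. All 14 Sertoli markers were expressed, among them Gata4 (744 ± 17.7 CPM; SD, n = 3, as throughout) and Sox9 (259 ± 36.9 CPM). Markers of fetal Leydig cells, the steroid-making cells outside the cords, were expressed in 6 of 6 cases, with summed levels of 1228 to 2014 CPM. Markers of germ cells were expressed in 7 of 9 cases (summed 57.1 to 73.5 CPM), of interstitial or peritubular cells in 5 of 5 (53.2 to 89.1 CPM), of endothelium in 3 of 6 (29.9 to 32.1 CPM) and of granulosa cells in 3 of 5 (6.89 to 9.21 CPM). Blood and macrophage markers were expressed in 2 of 6 cases (23.4 to 35.2 CPM) and red cell markers in 2 of 3 (51.5 to 57.0 CPM). No marker with a row was at 0 in all libraries. In such bulk libraries, fewer cells of a type and less RNA per cell cannot be told apart, and the part of each cell type in the levels below was not tested.

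The pathway was expressed from end to end. Of the 38 genes, 33 were expressed, beside 47.1% of all symbols, and 13 reached a mean of 100 CPM, beside 9.17% of all symbols. Together the 38 genes took 0.614% ± 0.0455 of all counts. The glycolytic enzymes from hexokinase to pyruvate kinase, 19 genes over 10 steps, took 0.484% ± 0.0386, and every step had at least 1 expressed gene. The 5 genes below 1 CPM were isoforms best known from other tissues. They were Slc2a2, the glucose carrier of liver and pancreatic islets; Hk3, a hexokinase of blood cells; Eno2, the neuronal enolase; Pklr, the pyruvate kinase of liver and red cells; and Ldhc, the lactate dehydrogenase of spermatogenic cells. Their means ran from 0.113 CPM in Hk3 to 0.468 CPM in Slc2a2, which rest on 3 to 28 reads per library.

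**Figure D1:**
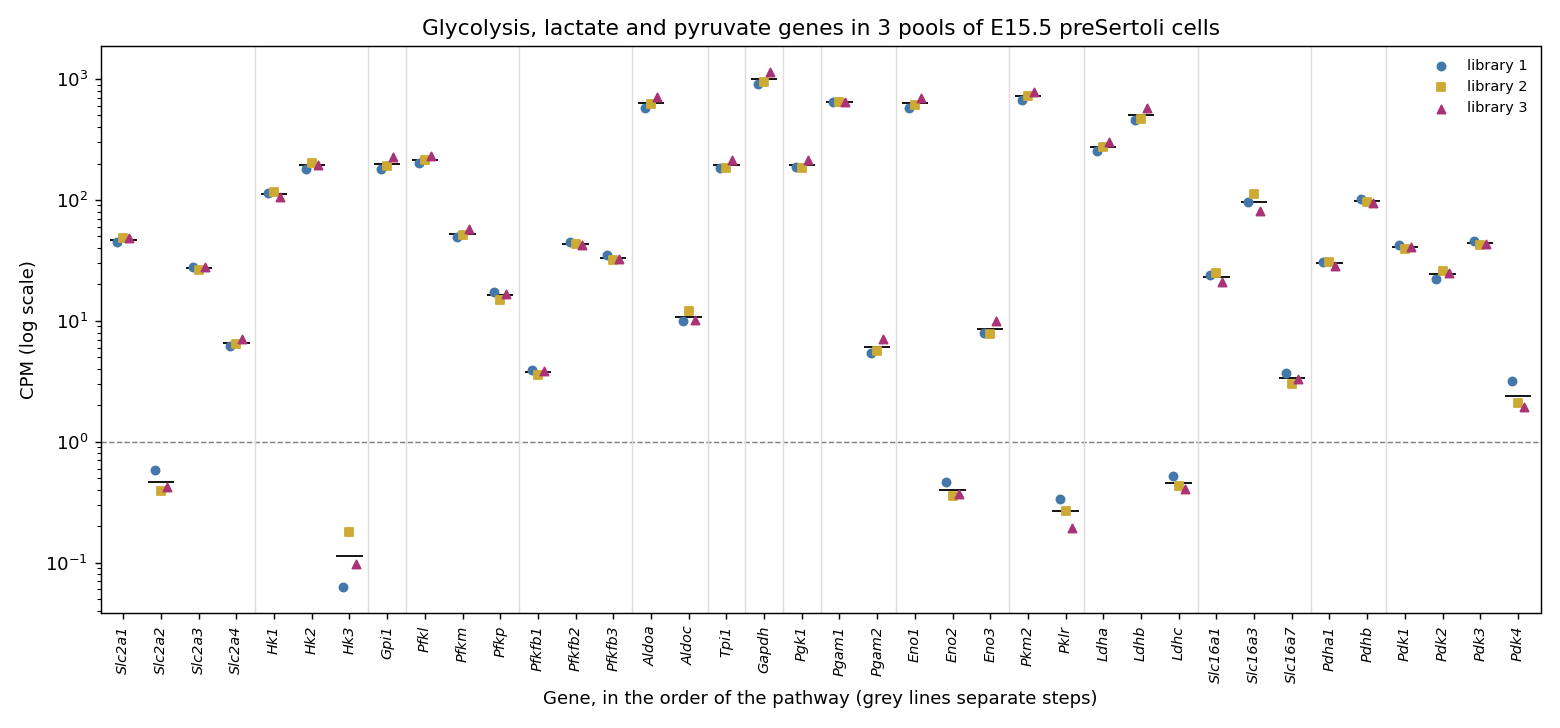
Level of each of the 38 genes in CPM on a log axis, in the order of the pathway; points are the 3 libraries, black bars their mean and the dashed line 1 CPM. Gapdh stands highest at 1000.2 CPM, and Slc2a2, Hk3, Eno2, Pklr and Ldhc lie below the dashed line.

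Glucose entry was led by Slc2a1 (GLUT1), the broadly expressed carrier, at 44.5, 48.2 and 48.4 CPM in libraries 1, 2 and 3. Slc2a3 (GLUT3), a carrier of high affinity, stood at 28.0, 26.6 and 28.0 CPM. Both were steady between pools, with coefficients of variation (CV) of 4.70% and 2.97%. The insulin-responsive carrier Slc2a4 (GLUT4) gave 6.18, 6.49 and 7.08 CPM. Of the reads of these 4 carriers, 57.6% ± 1.43 came from Slc2a1 and 33.7% ± 1.41 from Slc2a3. Among 9 further hexose carriers, 5 were expressed, beside 47.1% of all symbols, with a summed level of 21.8 to 22.3 CPM. The highest was Slc2a8 (9.76 ± 0.720 CPM), and the sodium-coupled carrier Slc5a2 had no read in any library.

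Glucose is trapped in the cell by hexokinase. Hk2 stood at 182, 204 and 195 CPM, and Hk1, the housekeeping form, at 114, 117 and 106 CPM. Hk2 gave 63.3% ± 1.71 of hexokinase reads, and its reads exceeded those of Hk1 by 1.59, 1.74 and 1.85 times in the 3 libraries. A transcript of Hk2 longer than that of Hk1 by those factors would level them, so their order per length is not settled. Gpi1, which turns glucose phosphate into fructose phosphate, gave 180.5, 191 and 228 CPM, highest in library 3.

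Phosphofructokinase, the committed step, was led by the liver type Pfkl at 201, 213 and 232 CPM. The muscle type Pfkm gave 49.3, 51.4 and 57.2 CPM and the platelet type Pfkp 17.5, 14.8 and 16.6 CPM. The ratio of Pfkl to Pfkm reads was 4.09 ± 0.0470 and hardly moved between pools, since both were lowest in library 1 and highest in library 3. The bifunctional enzymes that set the level of the activator of phosphofructokinase were Pfkfb2 (43.5 ± 0.899 CPM), Pfkfb3 (33.3 ± 1.63 CPM) and Pfkfb1 (3.78 ± 0.164 CPM). None of these 3 was highest in library 3. Outside the 38 genes, Pfkfb4 stood at 13.2 ± 0.853 CPM and Tigar, a phosphatase that acts against the same activator, at 17.0 ± 1.58 CPM.

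From aldolase to pyruvate kinase, each step had a single leading gene with nearly all of the reads, or a single gene in the list. Aldoa, the muscle and general aldolase, gave 580.4, 619.8 and 707 CPM, and the brain form Aldoc 10.0, 12.1 and 10.2 CPM. Aldoa had 98.3% ± 0.243 of the aldolase reads. Aldoc would need a transcript 51.4 to 69.2 times shorter than that of Aldoa to match it per length. Triosephosphate isomerase, Tpi1, stood at 185, 183 and 213 CPM.

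Gapdh, the dehydrogenase that yields NADH and the gene often used to scale expression data, was the highest of the 38 at 907, 942 and 1151 CPM. It ranked 56 of all symbols, and library 3 lay apart from the other libraries. The table holds 4 rows named Gapdh, and these values are those of the highest row. The next row gave 243, 256 and 280 CPM, which is 26.0% of the first, and the last pair stayed at 1.76 and 1.17 CPM. The rows share a symbol and nothing in the table tells their loci apart, so how reads were divided among them is uncertain. Short reads from near-identical copies can be split in the counting, and this holds for Gapdh and for other glycolytic genes that have processed copies in the genome.

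Pgk1, the first of the ATP-yielding kinases, gave 187, 185 and 212 CPM. Pgam1, the general phosphoglycerate mutase, gave 643, 647 and 641 CPM, and its CV of 0.463% was near the 0.548% that counting alone would give. The muscle mutase Pgam2 stood at 6.06 ± 0.917 CPM, with 0.934% ± 0.143 of the mutase reads. Eno1, the general enolase, gave 577, 613 and 698 CPM and 98.6% ± 0.0813 of enolase reads, while the muscle enolase Eno3 gave 8.55 ± 1.27 CPM. Pkm2 is the older symbol of the pyruvate kinase gene Pkm, and it gave 674, 726 and 787 CPM. Its row covers the gene as a whole, so the M1 and M2 splice forms are not separated. Pkm2 had 99.96% ± 0.0126 of the pyruvate kinase reads. The splicing factors known to choose the M2 exon were abundant, with Ptbp1 at 571 ± 18.1 CPM, Hnrnpa1 at 1606 ± 139 CPM and Hnrnpa2b1 at 1741 ± 67.3 CPM. Their levels do not tell which splice form was made, which was not tested.

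**Figure D2:**
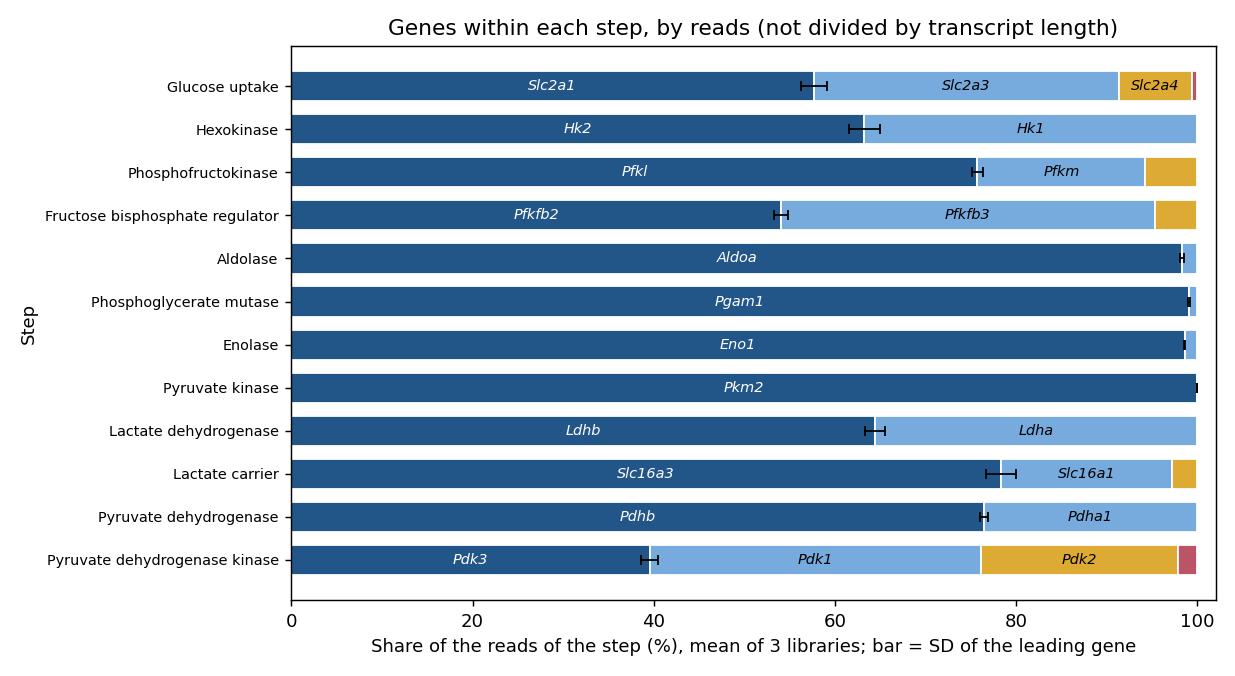
Share of the reads of each step by gene, in percent, for the 12 steps with more than 1 gene; bars are means of 3 libraries and the black error bar is the SD of the leading gene. Aldolase, mutase, enolase and pyruvate kinase are each held by 1 gene at 98.3% or more, whereas Pdk3 holds 39.6% of the kinase reads and Ldhb 64.4% of the lactate dehydrogenase reads; transcript length is not taken out.

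At the lactate step both common subunits were expressed, and the H subunit gene had more reads than the M subunit gene. Ldhb, whose subunit predominates in heart and is linked to lactate use, gave 459, 471 and 573 CPM. Ldha, whose subunit predominates in muscle and favours lactate formation, gave 252, 273 and 301 CPM. Ldhb had 64.4% ± 1.14 of the lactate dehydrogenase reads, and its reads exceeded those of Ldha by 1.82, 1.72 and 1.90 times. The reads of Ldhb were higher in each of the 3 libraries and the ranges did not overlap. A transcript of Ldhb longer by those factors would level them, so this order too holds for reads only. Both genes were lowest in library 1 and highest in library 3. The germ cell form Ldhc stayed at 0.453 ± 0.0623 CPM.

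Export was led by Slc16a3 (MCT4), the carrier of strongly glycolytic cells that releases lactate, at 96.7, 113 and 81.7 CPM. Slc16a1 (MCT1), which carries lactate both ways, stood at 24.1, 24.8 and 20.9 CPM, and the high-affinity carrier Slc16a7 (MCT2) at 3.73, 3.02 and 3.29 CPM. Slc16a3 had 78.3% ± 1.62 of the reads of these 3 carriers, 4.01, 4.54 and 3.92 times those of Slc16a1. Slc16a3 was lowest in library 3, where Ldha and Ldhb were highest. Basigin (Bsg), the chaperone that brings MCT1 and MCT4 to the surface, stood at 255, 272 and 258 CPM, and Emb, the partner of MCT2, at 30.0, 27.0 and 22.4 CPM. Of 13 other monocarboxylate carriers, 5 were expressed, beside 47.1% of all symbols. The lowest was Slc16a14 (0.122 ± 0.0557 CPM).

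The promoters of the lactate genes are shown because the 2 dehydrogenase genes and the 2 main carriers differ in the letters ACGTG. These letters are the core bound by hypoxia-inducible factors, and as CACGTG they form the E-box bound by MYC and other factors. Each sequence is the 250 bases before a RefSeq start in GRCm38.p6, a later build than the mm9 of the study, on the strand of the gene, with ACGTG or its reverse complement in capitals. The Ldha promoter is at chr7:46845554-46845803 (+ strand, the upstream of 2 listed starts), Ldhb at chr6:142507958-142508207 (- strand), Slc16a1 at chr3:104638414-104638663 (+ strand) and Slc16a3 at chr11:120948817-120949066 (+ strand).
Ldha: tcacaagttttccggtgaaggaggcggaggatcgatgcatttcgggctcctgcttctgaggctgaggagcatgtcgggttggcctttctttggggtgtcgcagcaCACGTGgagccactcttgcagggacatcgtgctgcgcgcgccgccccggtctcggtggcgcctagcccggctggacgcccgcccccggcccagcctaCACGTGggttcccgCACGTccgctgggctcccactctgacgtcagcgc
Ldhb: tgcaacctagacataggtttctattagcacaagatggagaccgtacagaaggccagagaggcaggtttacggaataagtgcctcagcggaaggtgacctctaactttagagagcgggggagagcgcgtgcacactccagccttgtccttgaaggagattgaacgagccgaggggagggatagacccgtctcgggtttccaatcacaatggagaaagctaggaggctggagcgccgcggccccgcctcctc
Slc16a1: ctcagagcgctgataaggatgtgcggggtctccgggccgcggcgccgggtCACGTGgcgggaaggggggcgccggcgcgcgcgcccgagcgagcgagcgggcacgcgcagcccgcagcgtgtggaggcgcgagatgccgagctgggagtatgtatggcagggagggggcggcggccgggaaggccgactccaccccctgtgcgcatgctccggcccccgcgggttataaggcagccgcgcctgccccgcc
Slc16a3: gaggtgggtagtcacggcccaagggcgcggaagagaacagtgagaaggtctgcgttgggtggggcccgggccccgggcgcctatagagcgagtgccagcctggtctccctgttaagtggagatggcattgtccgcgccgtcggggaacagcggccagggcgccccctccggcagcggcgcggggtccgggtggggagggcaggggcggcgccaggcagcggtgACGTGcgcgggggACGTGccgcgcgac

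The letters occurred 5 times in the Ldha sequence, counting both strands, so that each CACGTG counts on both. The window of the other Ldha start held none. The forward copies began 144 and 47 bases before the start. Slc16a1 held 1 CACGTG, whose forward copy began 199 bases before the start, and Slc16a3 held 2 forward copies at 27 and 14 bases. The Ldhb sequence held none. Over windows of 300 bases, the 250 before and 50 after a start, the letters occurred in 19.6% of all 32851 windows and in 25.2% of the windows of expressed symbols. Of 56 windows of the pathway genes, some of which overlap, 41.1% held them, and 19 of the 35 genes with a window had them in at least 1 (54.3%), beside 21.8% of all symbols with a window and 29.3% of expressed ones. Median GC content was 57.5% in the windows of these genes, 61.0% in those of expressed symbols and 52.7% in all. Slc2a3, Slc2a4 and Slc16a7 had no window in the sequences used. A match of letters is a description and not a binding site. Among the regulators that use these letters, Hif1a stood at 464 ± 32.5 CPM, its partner Arnt at 115 ± 1.01 CPM, Epas1 at 10.6 ± 1.15 CPM and Myc at 6.36 ± 0.223 CPM. The list of regulators also holds Mlxipl (34.3 ± 6.25 CPM) and Mlx (20.8 ± 0.342 CPM). These are levels of RNA, and whether any of these factors acts at the windows was not tested. Of the oxygen sensors, Egln1 stood at 69.7 ± 0.816 CPM and Egln3 at 0.632 ± 0.164 CPM.

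The E1 genes of pyruvate oxidation lay below Ldha and Ldhb in reads, and in the range of the lactate carriers. Pdhb gave 101, 96.1 and 94.2 CPM and Pdha1, which holds the regulatory sites of the complex, 30.9, 30.5 and 28.5 CPM. Both were lowest in library 3. The kinases that switch the complex off were led by Pdk3 (44.1 ± 1.82 CPM) and Pdk1 (40.7 ± 1.59 CPM), whose levels lay close together with a read ratio of 1.08 ± 0.0152. Pdk2 stood at 22.0, 25.7 and 25.0 CPM. Pdk4, the form induced by fasting, gave 3.15, 2.08 and 1.93 CPM, and library 1 lay apart. The summed reads of the 4 kinases were 111 ± 2.03 CPM. Their phosphatases Pdp1 and Pdp2 stood at 73.7 ± 4.59 and 13.7 ± 1.13 CPM. Of 9 genes measured around pyruvate entry and the dehydrogenase complex, 8 were expressed, led by Dld (161 ± 11.0 CPM), with Dlat at 55.7 ± 6.86 CPM and the pyruvate carrier Mpc1 at 16.3 ± 1.97 CPM. The germ cell form Pdha2 was lowest at 0.0527 CPM.

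Lactate formation and export, summed over Ldha, Ldhb, Ldhc and the 3 carriers, gave 836, 885 and 979 CPM, against 132, 127 and 123 CPM for Pdha1 and Pdhb. The lactate genes thus had 6.34, 6.99 and 7.98 times the reads of the E1 genes, a mean log2 ratio of 2.82 ± 0.17. The ratio was above 0 on the log2 scale in 3 of 3 libraries. An exact sign-flip permutation test gave a two-sided p = 0.25, the smallest that 3 libraries allow. Any 3 ratios of the same sign give this value, so the test cannot weigh lactate against oxidation. The ratio sets 6 genes against 2 without their lengths, so its sign and size are those of reads and depend on the genes set on each side. With Dlat, Dld and Pdhx, the other genes of the complex, added to the E1 genes, the complex summed to 411, 376 and 373 CPM and the ratio was 2.03, 2.35 and 2.63, a mean log2 ratio of 1.22 ± 0.19. That set was chosen after the values were seen, and Dld also serves other complexes. Its parts took different orders over the pools. The dehydrogenases alone had 5.39, 5.88 and 7.12 times the reads of Pdha1 and Pdhb. The carriers alone had 0.945, 1.11 and 0.862 times those reads, highest in library 2.

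**Figure D3:**
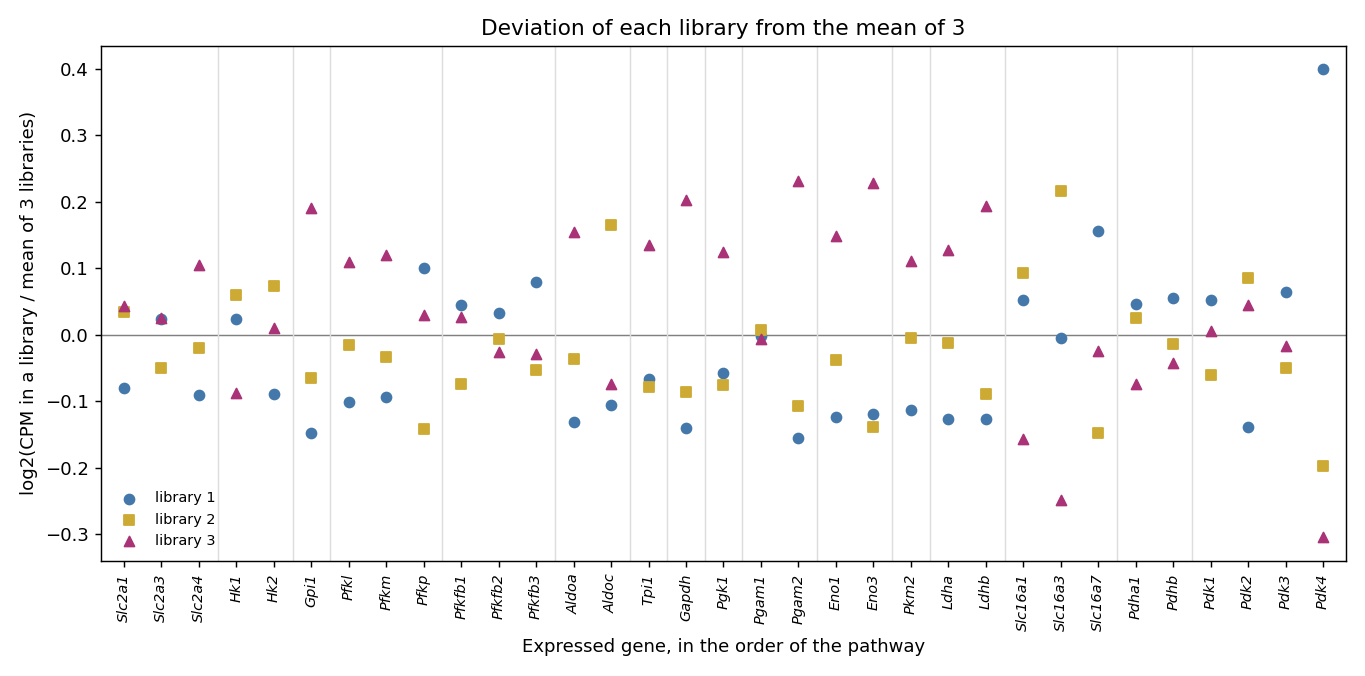
Deviation of each library from the mean of the 3, as log2 of the ratio, for the 33 expressed genes in pathway order; points are libraries and grey lines separate steps. Between Gpi1 and Ldhb, library 3 lies above the others except in Pfkp, Pfkfb1, Pfkfb2, Pfkfb3, Aldoc and Pgam1, at 0.19 for Gpi1 and Ldhb and 0.20 for Gapdh, and it lies below them for Slc16a3 (-0.25) and Slc16a1 (-0.16).

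Between the pools, most abundant glycolytic enzymes and both common lactate dehydrogenases were highest in the same library, a pattern chosen for description after the values were seen. Of the 33 expressed genes, 16 were highest in library 3, beside 35.1% of all expressed symbols. Of the 13 genes at a mean of 100 CPM or more, 10 were highest in library 3, beside 38.3% of expressed symbols at that level. The share rose with level, to 47.0% of the 234 symbols at 500 CPM or more, where 6 of the 13 genes lie. The 10 genes were Gpi1, Pfkl, Aldoa, Tpi1, Gapdh, Pgk1, Eno1, Pkm2, Ldha and Ldhb. The other 3 were Hk1, Hk2 and Pgam1, all highest in library 2. The median deviation from the mean of the libraries was 0.13 (log2) in library 3 for the 13 genes and -0.11 in library 1. For all expressed symbols at 100 CPM or more it was -0.00 in library 3 and 0.00 in library 1. At 500 CPM or more it was 0.025 and -0.018. The summed reads of the 10 leading genes from hexokinase to pyruvate kinase were 4316, 4523 and 5063 CPM, 17.3% apart between the lowest and the highest library. The CV over the 3 pools was 13.2% in Gapdh and 12.5% in Ldhb, and without library 3 it was 2.70% and 1.83%. With 3 pools of 1 group, no test bears on this pattern.

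The lactate carriers took another order. The 3 carriers summed to 125, 141 and 106 CPM, lowest in library 3, whereas the dehydrogenases summed to 711, 744 and 874 CPM. The ratio of Slc16a3 to Ldha reads was 0.384, 0.413 and 0.272. Of 85 expressed pathway genes outside the 38, 40 were highest in library 3, which is 47.1%, beside 48.5% of the 33 expressed genes described here and 35.1% of all expressed symbols. Their median deviation in library 3 was 0.01 on the log2 scale. The citric acid cycle, with 16 of 16 genes expressed, had 11 highest in library 3, and ran from Sdhb (60.3 ± 1.31 CPM) to Sdha (331 ± 4.34 CPM). The NADH shuttles, which reoxidise cytosolic NADH, had 6 of 8 highest there, and ran from Gpd1 (2.12 ± 0.528 CPM) to Mdh1 (190.3 ± 8.42 CPM). The genes around pyruvate entry and the dehydrogenase complex had 0 of 8 highest in library 3 and 6 of 8 highest in library 1. Of all expressed symbols, 34.6% were highest in library 1.

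Markers of other cell types moved between the pools as well. The 6 Leydig markers summed to 1695, 2014 and 1228 CPM, and each was lowest in library 3, for example Cyp17a1 (677, 820 and 531 CPM) and Insl3 (53.5, 87.8 and 23.2 CPM). Markers of interstitial or peritubular cells summed to 76.5, 89.1 and 53.2 CPM. Both sums were highest in library 2 and lowest in library 3, the order also seen in Slc16a3 and Slc16a1. The Sertoli markers Amh, Sox9, Dhh and Sox8 took that order too. Of all 14 Sertoli markers, 7 were highest in library 3, 5 in library 2 and 2 in library 1. Germ cell markers summed to 73.5, 57.1 and 61.7 CPM, and the summed Sertoli markers varied less, from 9790 to 10698 CPM. Among the latter, Amh, the hormone that removes the female ducts, gave 2167, 2660 and 1319 CPM. Clu, the most abundant of these markers, gave 2980, 3069 and 3467 CPM. The sum thus hides opposite moves of single Sertoli markers in library 3. Whether the makeup of the pools takes part in the levels of the glycolytic genes or of Slc16a3 was not tested.

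**Figure D4:**
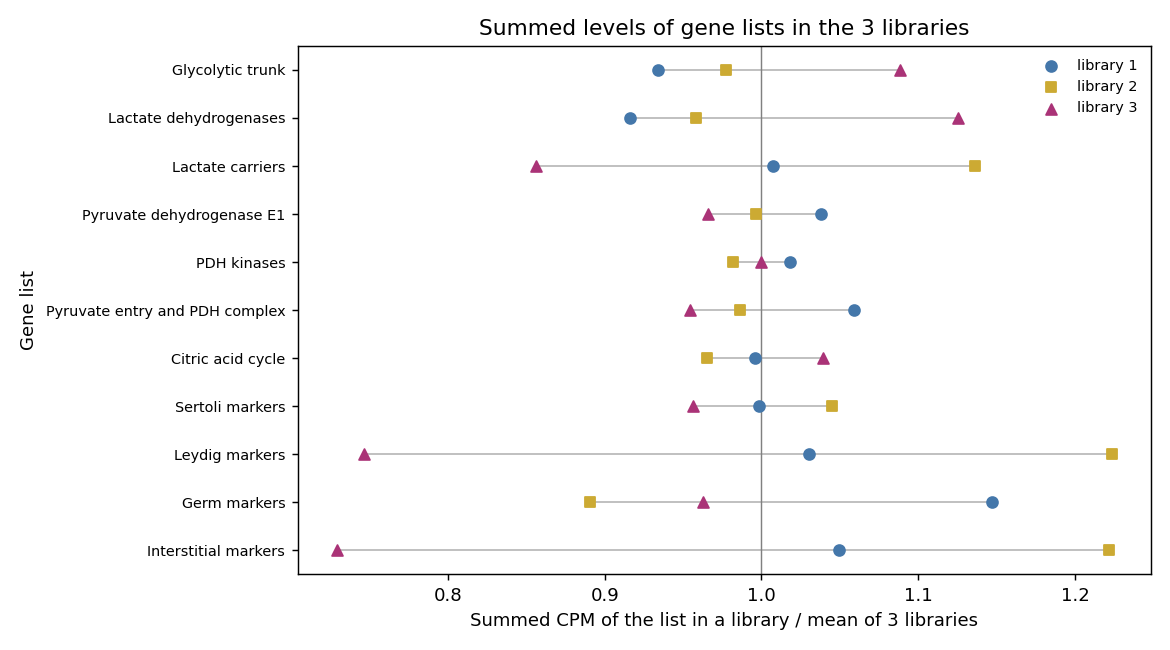
Summed CPM of gene lists in each library divided by the mean of the 3 libraries; points are libraries and grey lines span their range. Library 3 is the highest for the glycolytic trunk (5271 CPM) and the lactate dehydrogenases (874 CPM) and the lowest for the lactate carriers (106 CPM), the Leydig markers (1228 CPM) and the interstitial markers (53.2 CPM).

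Genes of the branches of the pathway were expressed in differing numbers, to be set beside the 47.1% of all symbols that were expressed. All 7 genes of the pentose phosphate pathway, which draws on glucose phosphate to make NADPH and ribose, were expressed, from Pgls (20.8 ± 4.59 CPM) to Tkt (200.4 ± 9.37 CPM), with G6pdx at 112 ± 8.75 CPM. Of 10 glycogen genes 9 were expressed, led by the brain-type phosphorylase Pygb (239 ± 8.74 CPM), with the glycogen synthase Gys1 at 60.7 ± 2.50 CPM and the liver form Gys2 at 0.0274 ± 0.0322 CPM. Gluconeogenesis had 3 of 6 genes expressed, near that share of all symbols, namely Pck2 (46.6 ± 2.31 CPM), G6pc3 and Fbp1. Its liver enzymes Pck1 (0.566 ± 0.178 CPM) and G6pc (0.0328 ± 0.0130 CPM) stayed below 1 CPM. Among 8 other hexokinases and side enzymes 5 were expressed, led by Adpgk (62.9 ± 2.04 CPM). Germ cell forms of the glycolytic enzymes were low, with 1 of 5 measured, Gapdhs, at 1 CPM or more in every library (1.07 ± 0.0475 CPM). Eno4 followed at 0.928 ± 0.216 CPM. Pgk2 was the lowest at 0.00595 CPM, from reads in library 2 alone. The receptor for follicle-stimulating hormone, Fshr, through which that hormone acts on Sertoli cells, stood at 28.0 ± 1.06 CPM, and the insulin and insulin-like receptors Insr and Igf1r at 106 ± 7.38 and 192 ± 12.9 CPM.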

How the data were processed

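RNA-seq was made from poly-A RNA of 3 pools of E15.5 preSertoli cells with single-end reads of 50 bp, per the labels' protocols. Per the submitters' processing notes, CASAVA 1.8.2, Bowtie 0.12.7, RSEM 1.2.0 and mm9 were used, with no annotation given in the sources used here. The deposited table holds a score per gene and library, the square root of an expected count divided by a scale for that library. The scale found from the values was 2226.75, 2607.59 and 2406 counts in libraries 1, 2 and 3. It was taken to be a 75th percentile set by the authors, but no percentile was computed here to check this. Squared values were whole multiples of 0.01 read in 100% of cases (tolerance 0.05 of a step), which gave the expected counts back; the recovery was tested on simulated data. CPM used the total over all 28427 rows, and the row of highest mean was kept per symbol, 426 rows being exact repeats. Columns were matched to samples by the number each carries, and per the labels the pools are independent biological replicates. Promoter sequences and starts are from RefSeq (GRCm38.p6), matched by symbol. Steps were computed in Python 3.11.15 with pandas 2.3.3 and numpy 2.4.6. The planned levels per length were not made, because no transcript lengths were used here, and the planned look at DNase peaks and H3K27ac domains at gene starts was not made, because no gene positions in mm9 were used here. By rule, values are given for the leading gene of each step and other expressed isoforms, by range for genes under 1 CPM, and for the highest and lowest gene of each further pathway list, except that some of these are not reported here. Other genes of those lists, and Gata4, Sox9, Sox8, Dhh, Amh, Clu, Cyp17a1 and Insl3 among the markers, were named after their values were seen. The leading gene was taken by reads in place of reads per length. The genes and lists were chosen with earlier results of these data known.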

Additional observations from a re-analysis of the deposited data

How the results depend on the processing

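The count of expressed genes was 33 at 1 CPM and stayed at 33 when scaled by the trimmed mean of M values (TMM). It also stayed at 33 with rows of a symbol summed, with a mean of 1 CPM, without any replicate and with repeated rows left out of the total. The same held with few mitochondrial rows left out of the total. These were 1 row named mt-, with 0.217 to 0.276% of counts, or Cytb, Cox2 and mt-Nd4, with 1.02 to 1.14%. The count was 30 at 5 CPM and 38 at any count. The lactate to oxidation log2 ratio was 3.20 for Ldha against Pdha1 alone, in place of 2.82, a change that follows from the genes kept on each side. This ratio was 1.22 with Dlat, Dld and Pdhx added to the oxidation genes, and 2.73 to 2.90 without a replicate. Of 304 recomputed levels, 302 moved by less than their SD. The exceptions were Gapdh with its rows summed and Pgam1 with Cytb, Cox2 and mt-Nd4 left out of the total. Levels without a replicate could not fail this rule, since leaving out 1 of 3 values moves a mean by less than the SD. Summing rows could change only the 2 genes with more than 1 row. The count of 302 is therefore no measure of robustness for those settings. The share of Ldhb was 63.9 to 65.0% without a replicate and that of Slc16a3 77.4 to 78.9%. In alternatives chosen after seeing the data, genes highest in library 3 numbered 16 to 18 under other totals (TMM 18, beside 39.0% of expressed symbols) and 22 and 19 without replicates 1 and 2 (beside 51.2% and 46.4%). Of the 13 genes at 100 CPM or more, 10 or 11 were highest in library 3 in each of these alternatives, beside 37.9 to 55.6% of symbols at that level. The alternative by coding length was not run, nor were those on gene starts. No paired analysis was possible because the RNA-seq libraries form a single group. The 5 of the 38 genes under 1 CPM rest on 28 reads or fewer per library, which limits the precision of their levels.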

Other observations

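Gapdh, often used as a stable reference, was among the more variable abundant genes over the 3 pools, and this rests on library 3. Its CV of 13.2% between the 3 pools was above that of 219 of the 234 symbols at a mean of 500 CPM or more, whose median CV was 6.48%. This CV is that of the highest of 4 rows named Gapdh, among which the division of reads is uncertain. The next row stood at 260 ± 18.4 CPM, and the rows summed at 1263 ± 150 CPM. Pgam1, in the same pathway and at 643 CPM, had the lowest CV of those 234 symbols. The CV of Ldhb was above 213 of them, and that of Aldoa above 197. Without library 3, the CV of Gapdh was 2.70%, above 83 of the 234 symbols, that of Ldhb 1.83%, above 64, and that of Aldoa 4.64%, above 128, where the median was 4.04%. Without library 1 or library 2, the CV of Gapdh was 14.1% and 16.8%. The CV of Pgam1 stayed between 0.219% and 0.643% with any library left out, above 3 to 17 of the 234 symbols. Its 3 values lie so close together that no pair of them could give a high CV. Leaving out a library is therefore no check of its low CV. The CV over the 3 pools, 0.463%, was also below the 0.548% that counting alone would give, so 3 pools do not show Pgam1 to be steady.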
